A study of Mus musculus with 4 samples.

Results

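The genes described here make, sense, take up, move or store cholesterol. The set holds 31 genes chosen by name for these roles, among 21986 gene names tested on the arrays, and 30 of the 31 had a probe matched by its accession. All 30 were well above background on all 8 arrays and none was saturated, so no member was lost to the filter on dim probes. Idi1, the isomerase of isopentenyl diphosphate, was not analysed here. The samples were male gonads of MCH mice with the wild type genotype, taken whole on embryonic day (E) 12.5, 13.5, 14.5 or 15.5, with no treatment and no altered allele in any group. Each stage had 2 one-colour Agilent arrays, described by the submitters as biological duplicates, and the labels do not say how many embryos or litters were pooled for each. The stages are the only comparison in the design.

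Levels are log2 intensity minus the array's 75th percentile, so a level of 0 is the brightness of the probe at that percentile and a difference of 1 is a 2-fold change. Between 60.3% and 69.8% of the 41174 probes were well above background on an array, and duplicates correlated at r of 0.977 to 0.989 across genes. The E12.5 and E13.5 arrays shared slides 1 and 2, with 1 array of each stage on each, whereas all E14.5 and E15.5 arrays lay on slide 3 and were read with a later version of the scanner software. The changes of the first day (E12.5 to E13.5) and of the last (E14.5 to E15.5) therefore compared stages that shared slides. The main tests held no term for slide. The middle day (E13.5 to E14.5) and the whole span (E12.5 to E15.5) ran across slides, and in these stage and slide cannot be told apart. In whole gonads, more cells of a type and more RNA per cell cannot be told apart either.

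Cells build cholesterol from acetyl-CoA, first along the mevalonate route to farnesyl diphosphate and then through squalene and lanosterol to cholesterol. When sterol in the endoplasmic reticulum is low, the escort protein Scap carries the SREBP transcription factors to the Golgi, where they are released to switch on the genes of synthesis and uptake, while the Insig proteins hold the complex back. In the fetal testis the Leydig cells turn cholesterol into androgens, and cholesterol also enters cells through lipoprotein receptors or is held as esters.

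SREBP factors bind sterol regulatory elements, commonly beside boxes for the factors NF-Y and Sp1, so the promoters of members that moved together are shown first. RefSeq windows (GRCm38.p6, 250 bases before to 50 after a start) were at hand for 25 of the 31 members. The 250 bases before the start are printed 5′ to 3′ for 5 of them: Hmgcs1, the only one of the 25 with the sterol element core TCACNCCAC; Cyp51, which with Dhcr7 had the largest differences between E12.5 and E15.5 (2.2 and 2.14, closer than their SE); Msmo1 and Nsdhl, each with more than 1 box in the printed stretch; and Scp2, which had no NF-Y box and whose level was not called different. Capitals mark the NF-Y box CCAAT, read as ATTGG where it lies on the other strand, and in Hmgcs1 also the sterol element core, which begins 137 bases before the start.
Hmgcs1, chr13:119690101-119690350, plus strand: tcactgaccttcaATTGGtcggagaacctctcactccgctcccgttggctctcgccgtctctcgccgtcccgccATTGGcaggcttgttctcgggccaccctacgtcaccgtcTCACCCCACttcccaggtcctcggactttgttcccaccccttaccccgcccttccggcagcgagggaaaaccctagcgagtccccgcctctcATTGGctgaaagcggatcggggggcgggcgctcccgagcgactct
Cyp51, chr5:4104698-4104947, minus strand: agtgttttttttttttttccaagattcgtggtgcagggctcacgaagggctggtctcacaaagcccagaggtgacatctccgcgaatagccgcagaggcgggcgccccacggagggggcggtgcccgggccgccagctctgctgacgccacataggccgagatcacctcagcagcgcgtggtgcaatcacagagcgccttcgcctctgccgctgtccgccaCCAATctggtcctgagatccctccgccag
Msmo1, chr8:64733579-64733828, minus strand: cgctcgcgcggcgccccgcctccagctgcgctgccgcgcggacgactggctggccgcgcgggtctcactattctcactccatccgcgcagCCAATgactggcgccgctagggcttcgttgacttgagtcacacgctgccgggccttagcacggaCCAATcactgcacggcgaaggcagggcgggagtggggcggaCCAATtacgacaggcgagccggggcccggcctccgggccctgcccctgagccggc
Nsdhl, chrX:72918271-72918520, plus strand: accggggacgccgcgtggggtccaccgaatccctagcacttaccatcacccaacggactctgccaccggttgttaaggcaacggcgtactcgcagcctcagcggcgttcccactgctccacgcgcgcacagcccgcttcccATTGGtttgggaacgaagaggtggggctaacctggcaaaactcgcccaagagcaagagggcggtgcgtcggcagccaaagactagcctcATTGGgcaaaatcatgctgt
Scp2, chr4:108118548-108118797, minus strand: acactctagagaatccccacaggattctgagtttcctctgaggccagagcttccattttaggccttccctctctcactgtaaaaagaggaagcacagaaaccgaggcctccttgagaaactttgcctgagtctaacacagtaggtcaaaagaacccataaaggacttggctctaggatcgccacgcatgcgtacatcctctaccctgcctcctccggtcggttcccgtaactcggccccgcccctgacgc

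The NF-Y box was present on either strand in 20 of the 25 members (80.0%) and in 41.1% of the 27025 genes in the table. Among genes with a single window, 16 of 19 members held it, beside 38.2% of all such genes. The Sp1 box GGGCGG was present in 23 of the 25 members (92.0%) and in 38.2% of all genes. The E-box CACGTG was present in 6 members (24.0%) and in 8.09% of all genes, and none of the motifs contains another. The sterol element core TCACNCCAC was present in 1 member (4.0%) and in 1.44% of all genes. Only exact matches to this pattern were counted, so sterol elements with other letters would be missed, also in the printed sequences. Of the members called higher at E15.5 than at E12.5, 13 had a window and all 13 held an NF-Y box, and of the 11 members with a window that were not called, 6 held one. Mvk and Ggps1, which were not called, held 5 and 3 boxes. These are matches of letters in short windows, described without a test. The 27025 genes were not limited to those above background on the arrays, whereas the measured members were all above it. The shares among genes above background were not counted.

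Across the 4 stages, E12.5 was the low point for most of the set. Of the 30 measured members, 20 had their lowest stage mean at E12.5, and 16 had their highest at E15.5 and 10 at E13.5. These counts were not made over all genes. The median of the members' levels, each taken against the gene's own mean over all arrays, was -0.53 and -0.46 on the E12.5 arrays, -0.05 and 0.06 at E13.5, 0.03 and 0.19 at E14.5, and 0.32 and 0.19 at E15.5. The same median over all genes tested stayed between -0.08 and 0.07. Both E12.5 arrays thus lay below the other 6 in the members' median, and the E13.5 and E14.5 arrays overlapped.

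**Figure D1:**
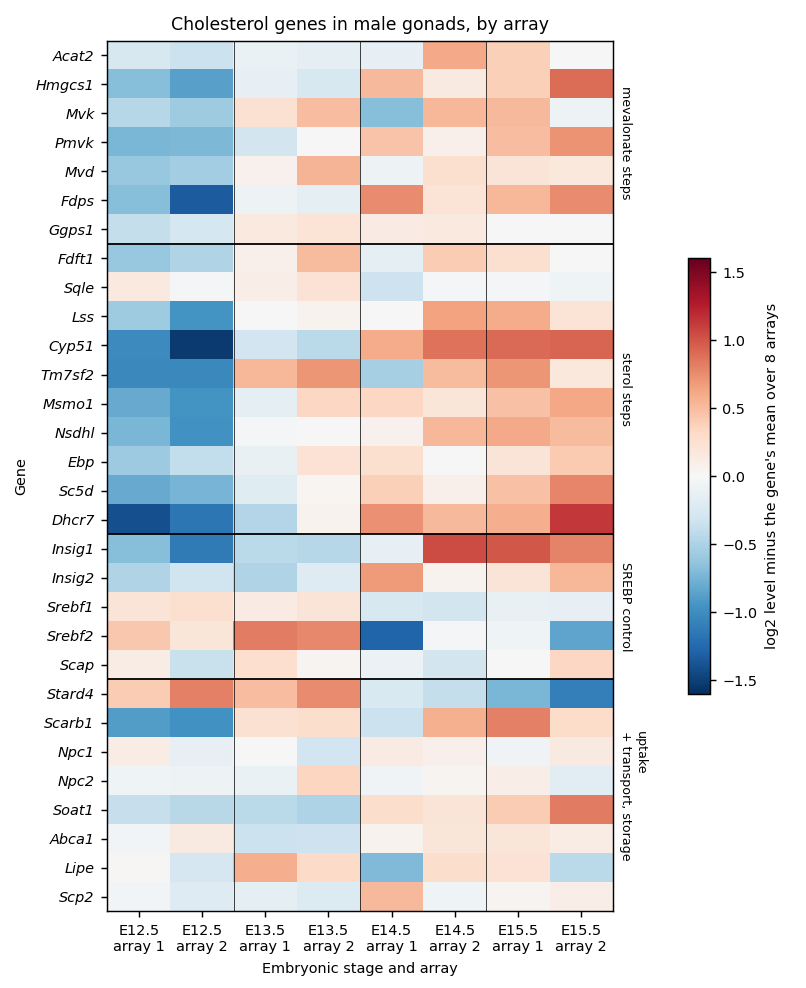
Heat map of the 30 measured cholesterol genes (rows, grouped by role) on the 8 arrays (columns, by embryonic stage). Colour gives the log2 level minus the gene's own mean over the 8 arrays; most mevalonate and sterol genes are lowest on both E12.5 arrays, whereas Stard4 is lowest on the E15.5 arrays.

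Between E12.5 and E15.5, 15 of the 30 members were called higher and 1 lower by limma at an adjusted p under 0.05, where 17.6% and 17.4% of all 21986 genes were called higher and lower. The median difference of the members was 0.77 and that of all genes was -0.07. Of the 15, the sterol steps gave 8, the mevalonate steps 4, uptake, transport and storage 2 and SREBP control 1. The single lower call was Stard4, whose other probes gave differences of the opposite sign (0.82 and 0.49). The comparison runs across slides. The count of calls was 9 without E12.5 array 2 and 10 without either E15.5 array, and 9 of the 16 members (Hmgcs1, Pmvk, Fdps, Cyp51, Msmo1, Nsdhl, Sc5d, Dhcr7 and Stard4) were called whichever array was left out.

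In the first day, from E12.5 to E13.5, no member was called in either direction after adjustment, where 2.68% of all genes were called higher and 1.3% lower. At an unadjusted p under 0.05 in the same limma fit, 14 of the 30 members were higher (46.7%) and 0 lower, beside 7.95% and 9.16% of all genes. The difference was positive for 25 members and negative for 5, with a median of 0.56 where that of all genes was -0.06. On slide 1 alone the median difference was 0.51 and on slide 2 alone 0.62, beside -0.06 and -0.04 for all genes. At E13.5, 22 of the 30 members were higher on both slides, beside 7181 of the 21986 genes tested. With slide as a fixed block in limma, 0 members were called, beside 981 of all genes. All 7 measured mevalonate genes and 9 of the 10 sterol genes were higher on both slides, with within-slide medians of 0.55 and 0.71 for the former and 0.67 and 1 for the latter. For uptake, transport and storage the within-slide medians were -0.05 and -0.02, and 2 of 8 genes were higher on both.

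From E13.5 to E14.5, 1 member was called higher (Cyp51) and 1 lower (Stard4), beside 6.44% and 6.04% of all genes, and the members' median was 0.21 beside -0.02 for all genes. The median was 0.06 without E13.5 array 1 and 0.04 without E14.5 array 2. From E14.5 to E15.5, within slide 3, no member was called, beside 0.559% of all genes higher and 0.0955% lower, and at an unadjusted p under 0.05 in the limma fit 0 members were higher and 1 (Stard4) lower, beside 6.74% and 2.78% of all genes. The median was 0.17 beside 0.01 for all genes, and it was -0.02 without E14.5 array 1. The change of the first day minus that of the last was also tested in limma, and 0 of the 30 members were called, beside 1.25% of all genes in the positive direction and 1.09% in the negative. At an unadjusted p under 0.05 that contrast gave 2 members in the positive direction (6.67%), Mvd and Ggps1, and 0 in the negative, beside 5.56% and 8.97% of all genes, a share near the background. The median of this contrast was 0.34 for the members and -0.07 for all genes.

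**Figure D2:**
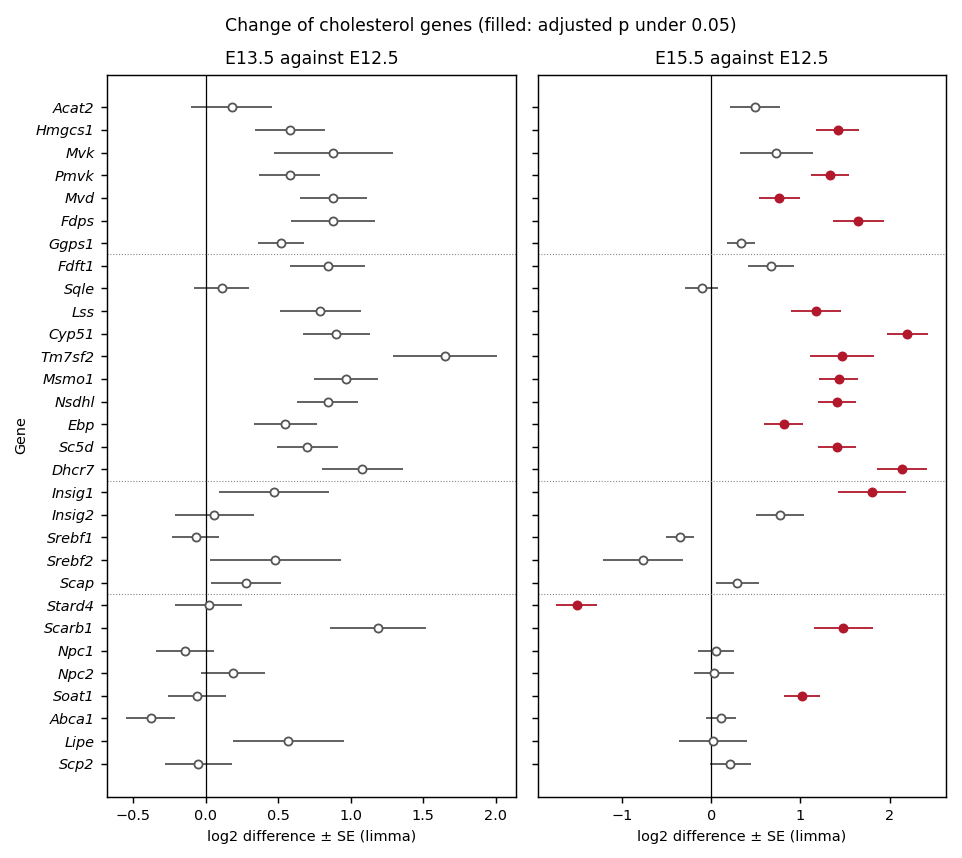
Log2 difference of each measured member (rows) for E13.5 against E12.5 (left) and E15.5 against E12.5 (right). Points are limma estimates from 2 arrays per stage, bars their SE, dotted lines part the roles, and filled points have an adjusted p under 0.05; 15 filled points lie right of 0 and 1, Stard4, lies left, all in the right panel.

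The mevalonate steps lead from acetyl-CoA to farnesyl diphosphate. Hmgcs1, the synthase that makes HMG-CoA, was at 4.16 and 3.98 on the E12.5 arrays, 4.71 and 4.59 at E13.5, 5.37 and 4.99 at E14.5, and 5.23 and 5.74 at E15.5. Its E12.5 arrays were the lowest of the 8, with the E13.5 arrays next. The difference between E15.5 and E12.5 was 1.42 ± 0.24 (SE; limma adjusted p = 0.00625), or 2.67-fold. Fdps, which makes farnesyl diphosphate, was at 3.89 and 3.24 at E12.5, 4.49 and 4.41 at E13.5, 5.33 and 4.79 at E14.5, and 5.1 and 5.33 at E15.5. All 4 arrays of the last stages lay above the others, and E15.5 exceeded E12.5 by 1.65 ± 0.29 (SE; limma adjusted p = 0.00657), or 3.14-fold. The kinase Pmvk was higher at E15.5 by 1.33 and the decarboxylase Mvd by 0.76, and both were called. Mvd differed by 0.88 in the first day and by 0.1 in the last, and the test of the difference between these days gave an adjusted p of 0.33 in limma.

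The thiolase Acat2, the kinase Mvk and the geranylgeranyl diphosphate synthase Ggps1 were not called. Their differences between E15.5 and E12.5 were 0.49, 0.73 and 0.33, with both E15.5 arrays above both E12.5 arrays in each case. Mvk could not be placed well at E14.5, where its arrays read -0.23 and 0.98. Its second probe showed the same gap, at -0.66 and 0.26.

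The sterol steps turn farnesyl diphosphate into squalene, lanosterol and at last cholesterol. Cyp51, the lanosterol demethylase, was at -0.42 and -0.94 at E12.5, 0.29 and 0.16 at E13.5, 1.19 and 1.46 at E14.5, and 1.5 and 1.53 at E15.5. No stage overlapped another. E14.5 exceeded E13.5 by 1.1 ± 0.23 (SE; limma adjusted p = 0.0318) and E15.5 exceeded E12.5 by 2.2 ± 0.23 (SE; limma adjusted p = 0.00103), or 4.59-fold. The call for E14.5 against E13.5 was lost without either array of E13.5, E14.5 or E15.5 (adjusted p of 0.0639 to 0.14), and the second-brightest of the 3 Cyp51 probes differed by 0.06 between these stages. That probe gave 1.16 over the whole span, and the third 2.28.

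Dhcr7, the reductase of the last step, was at 2.73 and 2.97 at E12.5, 3.67 and 4.19 at E13.5, 4.87 and 4.65 at E14.5, and 4.72 and 5.26 at E15.5. Each of its E13.5 arrays lay above both E12.5 arrays and below all later ones. The difference was 1.08 ± 0.28 (SE) in the first day, which did not pass (limma adjusted p = 0.0959), and 2.14 ± 0.28 (SE; limma adjusted p = 0.00219), or 4.41-fold, over the 3 days. Its dimmer probe gave 2.54 over the same span. Msmo1, a methylsterol oxidase, was at 3.46 and 3.31 at E12.5, 4.11 and 4.6 at E13.5, 4.6 and 4.46 at E14.5, and 4.74 and 4.89 at E15.5. The E13.5 and E14.5 arrays overlapped, and E15.5 exceeded E12.5 by 1.43 ± 0.22 (SE; limma adjusted p = 0.00423).

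Tm7sf2, a sterol reductase, had the largest first-day difference of the set. It was at 0.69 and 0.68 at E12.5, 2.25 and 2.42 at E13.5, 1.18 and 2.22 at E14.5, and 2.42 and 1.88 at E15.5. Both E12.5 arrays were lowest, and the later stages overlapped. E13.5 exceeded E12.5 by 1.65 ± 0.36 (SE), by 1.56 on slide 1 and 1.74 on slide 2 (limma adjusted p = 0.0637). Without either E14.5 array the SE was 0.23 and the adjusted p 0.0319. E15.5 exceeded E12.5 by 1.47 ± 0.36 (SE; limma adjusted p = 0.0223), a call lost without any 1 of the 4 arrays compared (adjusted p of 0.0535 to 0.107). From E14.5 to E15.5 it differed by 0.45, and by -0.07 without E14.5 array 1.

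Of the other sterol genes, the dehydrogenase Nsdhl and the desaturase Sc5d were each higher by 1.41 at E15.5, the cyclase Lss by 1.17 and the isomerase Ebp by 0.81, and all 4 were called. The 3 probes of Nsdhl gave 1.41, 1.41 and 1.09. Fdft1, which makes squalene, was higher by 0.67 and was not called (limma adjusted p = 0.0903). Sqle, the epoxidase that follows it, stood apart from its neighbours with a difference of -0.11 ± 0.19 (SE; limma adjusted p = 0.663). Its levels ran from 2.78 to 3.34 over the 8 arrays.

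**Figure D3:**
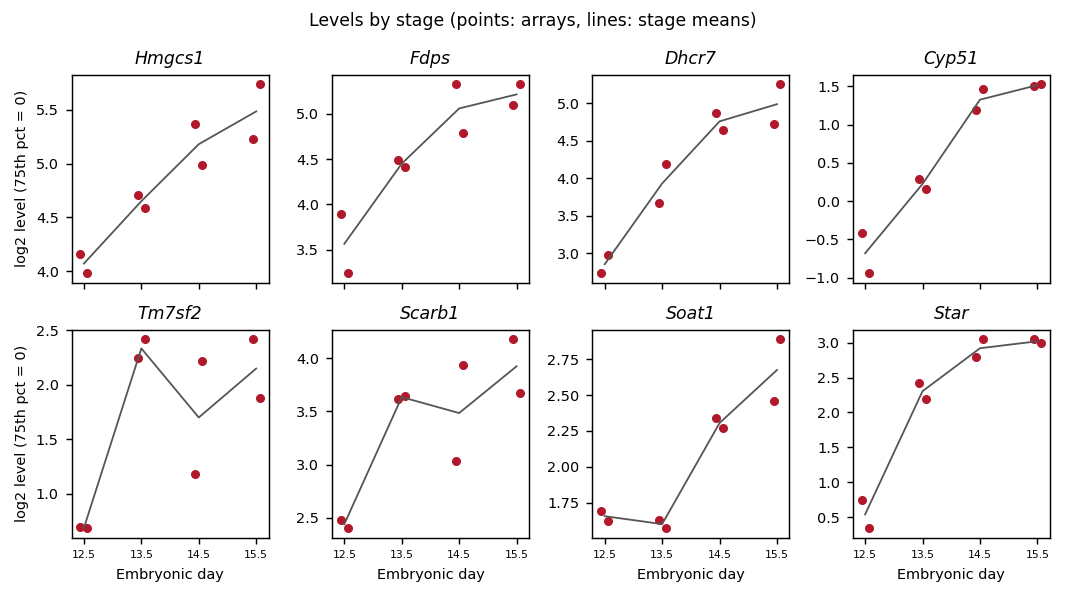
Log2 level (array 75th percentile = 0) against embryonic day for 7 cholesterol genes and for Star, the protein that carries cholesterol into mitochondria. Points are single arrays and lines join stage means; Cyp51 shows no overlap between stages, while Tm7sf2 and Scarb1 have E14.5 arrays of 1.18 and 2.22 and of 3.03 and 3.94.

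Among the genes of SREBP control, Insig1, which retains the Scap complex and is itself a known SREBP target, was the only one called. It was at -1.34 and -1.79 at E12.5, -1.09 and -1.11 at E13.5, -0.79 and 0.38 at E14.5, and 0.33 and 0.13 at E15.5. The E12.5 arrays were lowest and of the E14.5 arrays 1 lay below and 1 above both E15.5 arrays. E15.5 exceeded E12.5 by 1.8 ± 0.38 (SE; limma adjusted p = 0.0136), or 3.47-fold. Without E12.5 array 2 or either E15.5 array it was no longer called (adjusted p of 0.0602 to 0.0678), and the dimmer Insig1 probe gave 0.96. Insig2, its relative, was higher by 0.77 and was not called (limma adjusted p = 0.0636), and its second probe gave 0.04.

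The genes of the factors themselves were not called in any comparison. Srebf2, whose product mainly drives cholesterol genes, was at 0.96 and 0.72 at E12.5, 1.35 and 1.3 at E13.5, -0.76 and 0.5 at E14.5, and 0.46 and -0.32 at E15.5. All 4 later arrays lay below the 4 earlier ones. E14.5 against E13.5 gave -1.45 ± 0.45 (SE; limma adjusted p = 0.0793), which was -2.08 without E14.5 array 2, with an adjusted p of 0.0409, and -0.82 without E14.5 array 1. A dim second probe of Srebf2 read from -5.17 to -2.71 and was higher at E15.5 than at E12.5 by 1.28, opposite to the -0.77 of the brighter probe. Srebf1, whose product mainly drives fatty acid genes, differed by -0.35 between E15.5 and E12.5, and Scap by 0.29.

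In uptake, transport and storage, the members did not move as one. Scarb1, the receptor that takes cholesterol esters from high-density lipoprotein, was at 2.48 and 2.4 at E12.5, 3.62 and 3.65 at E13.5, 3.03 and 3.94 at E14.5, and 4.18 and 3.67 at E15.5. Both E12.5 arrays lay below all others. The first-day difference was 1.19 ± 0.33 (SE), with 1.14 on slide 1 and 1.25 on slide 2, and did not pass (limma adjusted p = 0.119). E15.5 exceeded E12.5 by 1.48 ± 0.33 (SE; limma adjusted p = 0.0155), or 2.8-fold, a call lost without either E12.5 array or E15.5 array 1 (adjusted p of 0.0534 to 0.0793). From E14.5 to E15.5 the difference was 0.45, and -0.01 without E14.5 array 1.

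Soat1, the enzyme that esterifies cholesterol for storage, differed by -0.06 in the first day and was called over the whole span. It was at 1.69 and 1.62 at E12.5, 1.63 and 1.57 at E13.5, 2.34 and 2.27 at E14.5, and 2.46 and 2.89 at E15.5. The 4 arrays of the last stages all lay above the 4 earlier ones, which lie on other slides. E15.5 exceeded E12.5 by 1.02 ± 0.2 (SE; limma adjusted p = 0.0104), and its 2 dimmer probes gave 0.24 and 0.43.

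Stard4, a carrier of cholesterol between membranes, was the only member called lower, and its probes disagreed. The brightest probe was at 0.88 and 1.28 at E12.5, 0.97 and 1.24 at E13.5, 0.23 and 0.1 at E14.5, and -0.25 and -0.61 at E15.5. It fell by 0.94 ± 0.23 (SE; limma adjusted p = 0.0481) from E13.5 to E14.5, a call lost whichever array was left out (adjusted p of 0.0596 to 0.198), and was lower at E15.5 than at E12.5 by 2.85-fold (log2 difference -1.51 ± 0.23 (SE); limma adjusted p = 0.00419). Within slide 3 it differed by -0.6 between E14.5 and E15.5 (limma adjusted p = 0.472). The other 2 probes, which are dimmer, gave 0.82 and 0.49 for E15.5 against E12.5 and 0.86 and 0.57 for E14.5 against E13.5. With the mean over its 3 probes the difference was -0.07 for E15.5 against E12.5 and 0.16 for E14.5 against E13.5, so no direction is given for the gene.

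The remaining 5 genes of this role were not called in any comparison. Between E15.5 and E12.5, the lysosomal exporters Npc1 and Npc2 differed by 0.05 and 0.03, the efflux pump Abca1 by 0.11, the ester hydrolase Lipe by 0.02 and the sterol carrier Scp2 by 0.21. For Npc1, Npc2, Abca1 and Lipe the E12.5 and E15.5 arrays overlapped.

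**Figure D4:**
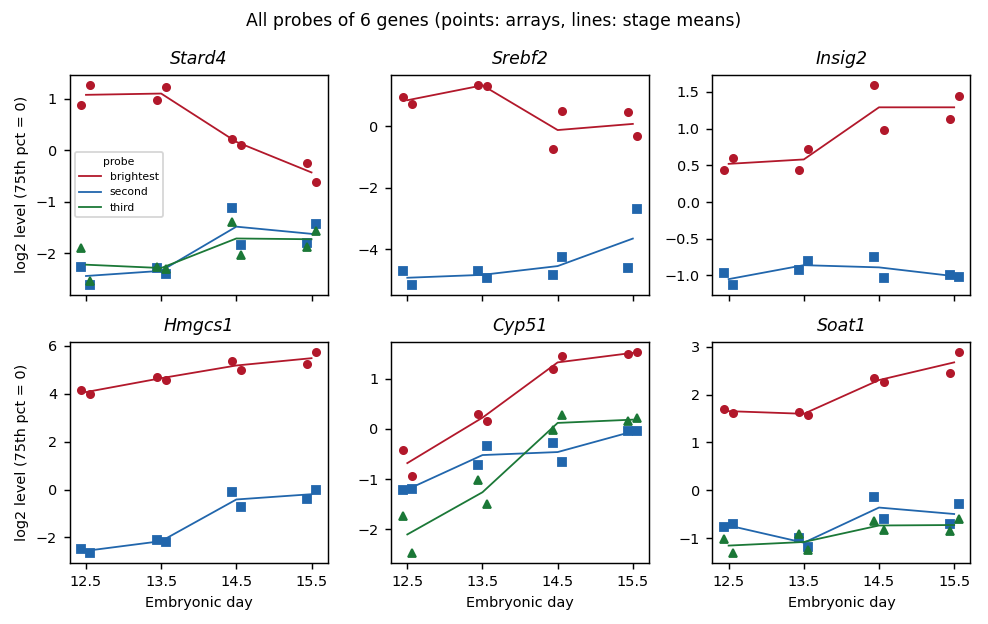
Log2 level (array 75th percentile = 0) against embryonic day for every probe of 6 members that passed the filter. Points are single arrays, lines join stage means and colour gives the probe's rank in brightness; the brightest probes of Stard4 and Srebf2 are lower at E15.5 than at E12.5 while their other probes are higher, and the probes of Hmgcs1, Cyp51 and Soat1 share a direction between these stages.

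Of the 14 members with more than 1 probe kept, 12 had the same sign on all their probes for E15.5 against E12.5, and Srebf2 and Stard4 did not. For E13.5 against E12.5 all probes shared a sign in 12, and for E14.5 against E13.5 in 10. The other 16 members rested on 1 probe.

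Duplicates differed less at the early stages. The median absolute difference between the 2 arrays of a stage over the 30 members was 0.17 at E12.5, 0.15 at E13.5, 0.36 at E14.5 and 0.27 at E15.5. Of the 16 members that were higher on E14.5 array 2 than on array 1, 15 were lower on E15.5 array 2 than on array 1, and of the 14 that were lower, 12 were higher. Mvk, Tm7sf2, Insig1, Srebf2, Scarb1 and Lipe were in the first of these sets. The correlation across all genes of the array deviations of E14.5 with those of E15.5 was -0.589, so this opposition was shared with the rest of the array. Its part in the comparisons with E14.5 or E15.5 was not tested.

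Other genes around the pathway, from a list of 30 of which 27 were measured, had 4 called higher and 4 lower at E15.5 than at E12.5, shares no larger than the 17.6% and 17.4% of all genes, with a median of 0.18. Those higher were Abcg4, a sterol pump (1.93), Fabp3, a fatty acid carrier (1.45), Stard6, a lipid transfer protein (1.1, dim and well above background on 1 of the E12.5 arrays), and Rnf139, a ubiquitin ligase of the sterol-sensing system (0.64, with -0.27 on its second probe). Those lower included Lipa, the lysosomal ester hydrolase (-1.33), Osbpl1a, an oxysterol-binding protein (-0.79), and Hsd17b7, a ketoreductase of the sterol steps (-0.78). From E13.5 to E14.5, across slides, 3 genes of the list were called lower, among them Lipa (-1.86) and Hsd17b7 (-1.28). The second probe of Hsd17b7 went the other way, with 1.37 over the whole span.

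Among 17 measured genes of fatty acid synthesis, 7 were called higher and 0 lower at E15.5 than at E12.5, with a median of 0.73. Of all genes, 17.6% were called higher and 17.4% lower. The desaturase Scd1 was higher by 2.89 (7.4-fold), the lipase relative Pnpla3 by 1.98 and Thrsp, a regulator of lipid synthesis, by 1.5. Of 14 measured genes of other isoprenoid and oxysterol branches, 0 were called higher and 2 lower (the prenyltransferase subunits Rabggtb, -0.85, and Pdss1, -0.6) in limma, and at an unadjusted p under 0.05 there were 2 in each direction (14.3%), beside 22.5% of all genes higher and 24.1% lower. Steroidogenesis, which uses cholesterol, had 8 of 13 genes called higher in the first day and 8 over the whole span, beside 2.68% and 17.6% of all genes. Its largest differences over the span were those of Hsd17b1 (4.6), the side-chain cleavage enzyme Cyp11a1 (3.51) and Hsd3b6 (2.7).

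Fetal Leydig cell markers were also lowest at E12.5 in sum. All 9 were above background, and their summed linear level, in units of the array's 75th percentile, was 35.3 and 27.8 on the E12.5 arrays, 112 and 141 at E13.5, 124 and 152 at E14.5, and 172 and 149 at E15.5. In the first day 8 of the 9 were called higher, including Cyp11a1 by 2.81, Insl3 by 2.62 and Star by 1.76. Of the 30 cholesterol genes 0 were called higher, and of all genes 2.68%. At an unadjusted p under 0.05 in the limma fit, 8 of the 9 markers and 14 of the 30 members were higher, beside 7.95% of all genes. In the difference between the first and the last day 3 of the 9 were called in the positive direction, beside 1.25% of all genes, with a median of 1.69. Of the 30 members 0 were called, with a median of 0.34. The part of the Leydig markers' change in that of the members was not tested. The 7 germ cell markers summed to 72.2 and 68.4 at E12.5, 119 and 121 at E13.5, 121 and 88.1 at E14.5, and 76.1 and 101 at E15.5. Of the 7, 3 were called higher in the first day. From E13.5 to E14.5, 1 was called higher and 4 lower. Over the whole span 2 were called higher and 4 lower, with differences from -4.4 to 3.63, so the sum joins markers that went opposite ways. The 7 endothelial markers summed to 17.2 and 17.7 at E12.5, to 10.7 and 9.59 at E13.5 and to between 7.79 and 9.34 later. Of these, 1 was called lower in the first day, beside 1.3% of all genes. From E13.5 to E14.5 the difference was positive for 5 and negative for 2, and those 2 were called lower, beside 6.04% of all genes. Over the whole span 2 of the 7 were called lower, beside 17.4% of all genes, and 0 higher. The summed level ran from 141 to 205 for the 8 Sertoli markers and from 0.927 to 2.11 for 5 macrophage markers.

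Markers of blood and of tissue beside the gonad also differed between the stages. The 6 erythroid markers above background summed to 137 and 156 at E12.5 and to 10.6 and 7.84 at E15.5, and 5 mesonephros markers to 4.24 and 3.89 at E12.5 and to 1.08 and 1.13 at E15.5. Over the whole span 1 erythroid marker was called higher and 5 lower, and 1 mesonephros marker higher and 2 lower. Of all genes, 17.6% were called higher and 17.4% lower. Both sums thus join markers that went opposite ways. Of the adrenal cortex, a cholesterol-using neighbour, Cyp11b2 and Cyp21a1 were not above background. The 3 markers that were summed to 1.34 and 1.09 at E12.5, 2.47 and 2.53 at E13.5, 3.04 and 2.93 at E14.5, and 3.51 and 3.24 at E15.5. Of these 3, 2 were called higher in the first day and over the whole span, beside 2.68% and 17.6% of all genes. Of the hepatocyte markers Alb, Apoa1 and Ttr were not above background, and Afp and Ahsg summed to 2.22 and 1.78 at E12.5 and to 12.2 on both E15.5 arrays. The sympathoadrenal marker Dbh was not above background, and the 3 markers of that list that were summed to between 0.359 and 0.799. The part of these cell types in the members' differences was not tested.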

How the data were processed

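Male gonads at 4 stages were measured on 8 one-colour arrays, 2 per stage. Each deposited scanner file holds spot intensity on a linear scale. Per the file headers, Agilent Feature Extraction 9.1.3.1 (E12.5, E13.5) or 9.5.3.1 (E14.5, E15.5) made these values, and the submitters' processing notes name version 9.5. The authors' deposited table gives a linear ratio per probe and stage, with unknown centring and scaling. Its columns had medians of 1.14, 1, 0.898 and 0.859. Over genes, its centred log2 values correlated with the centred stage means of the scanner values at r of 0.998 to 0.999. Of 30 members, the main direction was kept by 27 (first day), 30 (middle day), 18 (last day) and 24 (whole span).

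Spots of a probe were averaged without outlier spots, log2 was taken, and each array's 75th percentile over its probes that are not controls was subtracted. Probes flagged well above background on both duplicates in 1 or more stages were kept (28188 of 41174), and each gene took its brightest. Accessions matched 55.7% of probes to a RefSeq symbol, and other probes kept the files' names. Stages were compared with limma 3.58.1 (R 4.3.3) over all 8 arrays, with no block and Benjamini-Hochberg adjustment over 21986 genes, called at 0.05. Residual degrees of freedom were 4 and prior ones 2.57. P-values measure the spread between duplicates, pooled over all stages for each gene, and the number of arrays limits precision. Duplicates lay on slides 1 and 2 at E12.5 and E13.5, and both on slide 3 at E14.5 and E15.5. The p-values hold no spread between slide 3 and the others. Some genes of the lists are not reported here.

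Values on every array are given for up to 8 called members of largest change per direction and comparison, or, with fewer than 3 called, the 3 of largest change. Members, lists and this rule were chosen with earlier results of these data known. The files hold no mean spot signal, so the normexp alternative used the median signal. Same-numbered arrays deviated together for E12.5 and E13.5 (r = 0.646), which share slides. Those of E14.5 and E15.5 deviated in opposite directions (r = -0.589). For the other pairs of stages r was -0.081 to 0.074. Numbers were therefore not treated as pairs in the main fit. No fit paired arrays of E14.5 and E15.5 that have different numbers. The calls for the last day and for the difference between the days were thus not tested under such a pairing.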

Additional observations from a re-analysis of the deposited data

How the results depend on the processing

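The count of members called for E15.5 against E12.5 stayed within 1.5 times of 16 under every alternative run except normexp background correction (7 called) and some fits without 1 array (9 to 17); with the array number as a replicate block it was 16. The 2 calls for E14.5 against E13.5 depended most on the processing. They became 1 with arrays scaled to their median or slide as a random block, 4 with quantile normalization, 4 with normexp after extreme local backgrounds were replaced, 0 with plain normexp, without the filter on dim probes, with only the arrays compared or with the replicate block, and 0 to 1 without 1 array; with the mean over probes there were 3, all higher, of which 1 was shared. For E13.5 against E12.5 the count of 0 became 2 with quantile normalization, 2 with normexp and replaced backgrounds, 1 with the mean over probes, and 0 to 1 without 1 array. In the last day (E14.5 to E15.5) and in the difference between the days it was 0 under each alternative run.

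The median change of the members for E13.5 against E12.5 was 0.65 with median scaling, 0.46 with plain normexp and 0.44 in the authors' deposited table. It was 0.5 to 0.64 without 1 array. Relative to all genes, median scaling, plain normexp and the authors' table gave 0.62, 0.17 and 0.62. With plain normexp the median of all genes was 0.29, beside -0.06 in the main fit. With normexp after extreme local backgrounds were replaced, the members' median was 0.51, and 0.57 relative to all genes. Only plain normexp thus removed most of the members' excess in median change. For E14.5 against E13.5 it was 0.04 to 0.27 without 1 array. For E15.5 against E14.5 it was 0.03 with median scaling, -0.07 in the authors' deposited table and -0.02 to 0.25 without 1 array; median scaling and the table shift all genes as well, to medians of -0.13 and -0.23, and relative to all genes each gave 0.16. For E15.5 against E12.5 it was 0.68 with the mean over probes, 0.45 in the authors' deposited table, whose median over all genes was -0.39, and 0.73 to 0.83 without 1 array. Of the members named by the rule, directions turned for Stard4, E14.5 against E13.5, with the mean over probes (0.16), and, for E15.5 against E14.5 without E14.5 array 1, for Scarb1 (-0.01; 0.9 without E14.5 array 2) and Tm7sf2 (-0.07; 0.97). Over all 30 members, the direction for E15.5 against E14.5 was kept in 19 without E14.5 array 1, in 24 to 25 without any other array compared and in 24 with median scaling, and for E14.5 against E13.5 in 23 with normexp. In the authors' deposited table it was kept in 18 for E15.5 against E14.5 and in 24 for E15.5 against E12.5. The causes were not tested beyond what each alternative changes by construction. Normexp on the median signal, the replacement of extreme backgrounds and a 75th percentile taken over spots were chosen after seeing the data; the last gave the same counts of members called (0, 2, 0, 16 and 0). Slide as a fixed block could be fitted only within slides, and the table was not used for the difference between the days.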
